A study of Mus musculus with 6 samples.

Results

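The genes described here break down the branched-chain amino acids leucine, isoleucine and valine, or control that breakdown. They are the 10 genes Bcat2, Bckdha, Bckdhb, Dbt, Bckdk, Ppm1k, Ivd, Mccc1, Hibch and Aldh6a1, of 19038 genes named on the array, and were chosen by symbol. All probes annotated to these symbols were taken, 18 of 45281, with 1 to 4 probes per gene. Expression was measured in adipocytes that had been differentiated from the mouse 3T3-L1 line and were then given 500 nM dexamethasone (DEX), a synthetic glucocorticoid, or ethanol vehicle for 6 hours. Each group had 3 Illumina MouseWG-6 BeadChip arrays, all from the same batch of arrays. The paper states that every treatment was done in triplicate. The sources do not state that the 3 samples of a group came from different dishes, and the p-values may therefore reflect technical spread alone. The culture is a model of limited reach. All 6 samples come from 1 cell line, and cells of both groups had seen DEX before, since the mix that induced differentiation held DEX together with methylisobutylxanthine and insulin. Drug-free medium and then medium with stripped serum followed before the treatment.

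Markers of adipocytes were detected, and so were markers of preadipocytes and fibroblasts. Of 11 adipocyte markers 10 could be tested, with Adipoq and Lpl detected on all 6 arrays, while none of 5 endothelial markers and 1 of 6 macrophage markers with a probe (Cd14) were detected on at least 3 arrays. Of 10 preadipocyte and fibroblast markers, 8 were detected on at least 3 arrays, Dlk1 and Acta2 among them. The share of undifferentiated cells in the culture was not measured. Plin1, which coats the lipid droplet of adipocytes, was the one of these markers to pass, and it fell. With the replicate numbers as pairs Pdgfra, a receptor of preadipocytes and fibroblasts, also passed as higher (difference 0.63, adjusted p = 0.0361 from limma, against 0.0508 without pairs). All 6 glucocorticoid targets listed as a check of the treatment rose with DEX, by a median of 2.54 on the log2 scale. Between 15983 and 16523 probes (median 16117) were detected per DEX array and between 15800 and 16512 (median 15959) per vehicle array, at a detection p-value under 0.05 against the array's negative control beads. Signals are given on the log2 scale after background correction and quantile normalization, so that a difference of 1 is a factor of 2. The signals of different probes are not comparable in level.

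Breakdown of branched-chain amino acids begins in mitochondria with the removal of the amino group by a transaminase. The resulting keto acids are then committed to oxidation by the branched-chain keto acid dehydrogenase complex, which a kinase turns off by phosphorylation and a phosphatase turns on again. Beyond the complex the 3 amino acids follow separate routes that end in acetyl-CoA, acetoacetate or propionyl-CoA. Differentiated adipocytes are known to oxidize these amino acids and to use their carbon for lipid synthesis, and the pathway enzymes are induced when 3T3-L1 cells become adipocytes.

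None of the 9 members that could be tested passed an adjusted p under 0.05 in DEX against vehicle (limma, adjusted over 16317 tested probes). At an unadjusted p under 0.05, 1 member (Ppm1k) was higher and none was lower, where 21.9% of all genes were past it in either direction. Over all 9140 tested genes, each taken by its brightest probe, 4.52% passed as higher and 3.05% as lower. The remaining member, Hibch, was not detected on any array. In the normalized signals the groups did not overlap for 2 of the 9 members, Ppm1k and Aldh6a1, both with DEX above vehicle. Of all genes, 12.2% had DEX above and 15.7% had DEX below vehicle without overlap. Across the 9 members the log2 difference of DEX minus vehicle ranged from -0.03 to 0.75 with a median of 0.15, against a median of -0.06 over all tested genes. All 3 same-number differences were above 0 for 3 members, Dbt, Ppm1k and Aldh6a1, and for 20.4% of all genes. The difference was above 0 for 7 of the 9 members (42.3% of all genes), but for 4 when arrays were scaled by their median, for 5 with array weights and for 5 without DEX replicate 3. The 7 include Bckdk, whose difference was only 0.0013. The standard error had a median of 0.17 for the members and for all genes alike. In such bulk samples a lower signal can come from fewer cells of a type or from less RNA per cell, and these cannot be told apart.

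**Figure D1:**
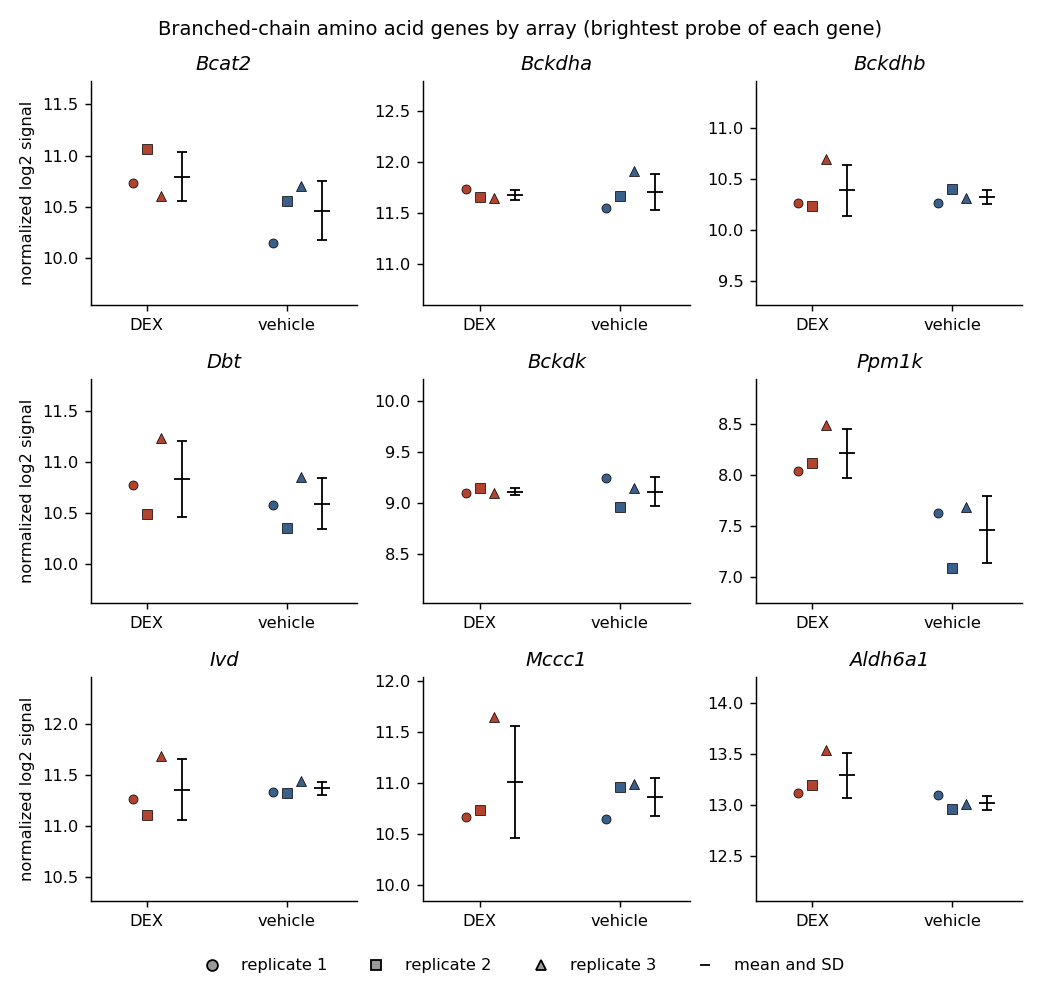
Normalized log2 signal of the brightest probe of each of the 9 detected members, with the DEX arrays left of the vehicle arrays, one symbol per replicate number, and the mean with its SD (n = 3). Each panel spans the same range of log2 units around its own mean. DEX and vehicle arrays are apart for Ppm1k and Aldh6a1 and overlap for the other 7 genes.

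Bcat2 encodes the mitochondrial transaminase that carries out the first step. Its log2 signal was 10.73, 11.06 and 10.60 on the DEX arrays, against 10.14, 10.55 and 10.70 on the vehicle arrays. The DEX mean was higher, but the lowest DEX array lay below the highest vehicle array, so the groups overlapped. The difference was 0.33 with a standard error of 0.19, or 1.26-fold with a 95% interval from 0.93 to 1.70, and did not pass (adjusted p = 0.385 from limma). It was 0.17 without vehicle replicate 1, 0.20 without DEX replicate 2 and 0.16 with median scaling. Arrays of the same replicate number differed by 0.59, 0.50 and -0.11. A further Bcat2 probe, annotated to a cDNA clone, was not detected on any array.

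The dehydrogenase complex has a decarboxylase made of the subunits Bckdha and Bckdhb, and a core of Dbt, the acyltransferase that passes the acyl group to coenzyme A. Bckdha, the subunit that the kinase phosphorylates, had log2 signals of 11.74, 11.66 and 11.65 in DEX and 11.55, 11.67 and 11.91 in vehicle. All 3 DEX values lay inside the vehicle range. The difference was -0.03 with a 95% interval of 0.778 to 1.24-fold (adjusted p = 0.94).

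Bckdhb had log2 signals of 10.26, 10.23 and 10.69 in DEX and 10.26, 10.40 and 10.31 in vehicle. A single DEX array, replicate 3, stood above the other 5. The difference was 0.07, or 1.05-fold with a 95% interval of 0.815 to 1.36 (adjusted p = 0.852), and without that array it was -0.07.

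Dbt was measured by 3 probes, of which 1 was not detected on any array. The brightest gave 10.77, 10.49 and 11.23 in DEX, against 10.58, 10.35 and 10.85 in vehicle, with overlapping groups and a difference of 0.24 (standard error 0.21, adjusted p = 0.584). DEX replicate 3 was again the highest array, and without it the difference was 0.04. The dimmer probe gave 7.14, 6.48 and 7.59 in DEX and 6.91, 6.68 and 6.78 in vehicle, a difference of 0.28 (adjusted p = 0.594) that was 0.02 without DEX replicate 3 and 0.57 without DEX replicate 2. For both probes the 95% interval reached beyond 1.6-fold (0.847 to 1.65 for the brightest and 0.819 to 1.79 for the dimmer probe). A rise of Dbt is therefore less closely bounded than one of Bckdha.

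The complex is switched by Bckdk, the kinase that inactivates it, and by Ppm1k, the mitochondrial phosphatase that activates it. Both act on the same subunit, in opposite directions. Bckdk was measured by 2 probes, both detected on all arrays. The brighter gave 9.10, 9.14 and 9.10 in DEX, against 9.24, 8.96 and 9.14 in vehicle, so that every DEX value lay between the vehicle values. The difference was 0.00 with a standard error of 0.14, and its 95% interval ran from 0.803 to 1.25-fold (adjusted p = 0.998). The other probe gave 9.0, 8.60 and 8.79 in DEX and 8.97, 8.71 and 8.79 in vehicle, a difference of -0.02 (adjusted p = 0.949). The 2 probes were thus alike in showing overlapping groups and differences near 0, with the wider interval running from 0.767 to 1.26-fold.

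Ppm1k was the member with the largest difference. The mean bead signals of its brightest probe, before any correction, were 344, 316 and 416 on the DEX arrays and 294, 200 and 300 on the vehicle arrays, so the groups were apart in the deposited signals as well. After normalization they were 8.04, 8.11 and 8.49 in DEX and 7.62, 7.09 and 7.68 in vehicle on the log2 scale. All DEX arrays lay above all vehicle arrays, the nearest being 8.04 in DEX and 7.68 in vehicle. The difference was 0.75 with a standard error of 0.20, or 1.68-fold with a 95% interval from 1.23 to 2.30. It did not pass (adjusted p = 0.0588 from limma). With the replicate numbers as pairs it passed (adjusted p = 0.0183 from limma, standard error 0.16), where 6.58% of all genes passed as higher. Ppm1k was higher in DEX in 3 of 3 pairs, by 0.42, 1.02 and 0.81. Over all alternatives the adjusted p ran from 0.0151 to 0.243 and the difference from 0.56 to 0.86. Whether Ppm1k was called depended on the setting, while the sign of the difference was the same under each alternative.

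The other Ppm1k probes, all annotated to the same transcript, were dimmer and gave mixed values. The second in signal gave 6.54, 6.12 and 6.55 in DEX, against 6.09, 5.94 and 6.09 in vehicle, with no overlap and a difference of 0.36 (adjusted p = 0.248), which was 0.18 without background correction. The third was detected on 3 of 3 DEX arrays and 1 of 3 vehicle arrays, at 5.39, 5.12 and 6.11 in DEX and 5.10, 4.80 and 4.78 in vehicle, with a difference of 0.65 (adjusted p = 0.157). It met the detection filter through the DEX arrays, and its difference was 0.25 without background correction and 0.37 without DEX replicate 3. The dimmest, detected on 1 of 3 DEX arrays and 2 of 3 vehicle arrays, gave 4.87, 4.66 and 5.90 in DEX and 5.31, 5.29 and 4.94 in vehicle. Its groups overlapped widely and its difference was -0.04 with a 95% interval of 0.618 to 1.54-fold (adjusted p = 0.959). Probes of 1 gene share their RNA samples and are not independent.

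**Figure D2:**
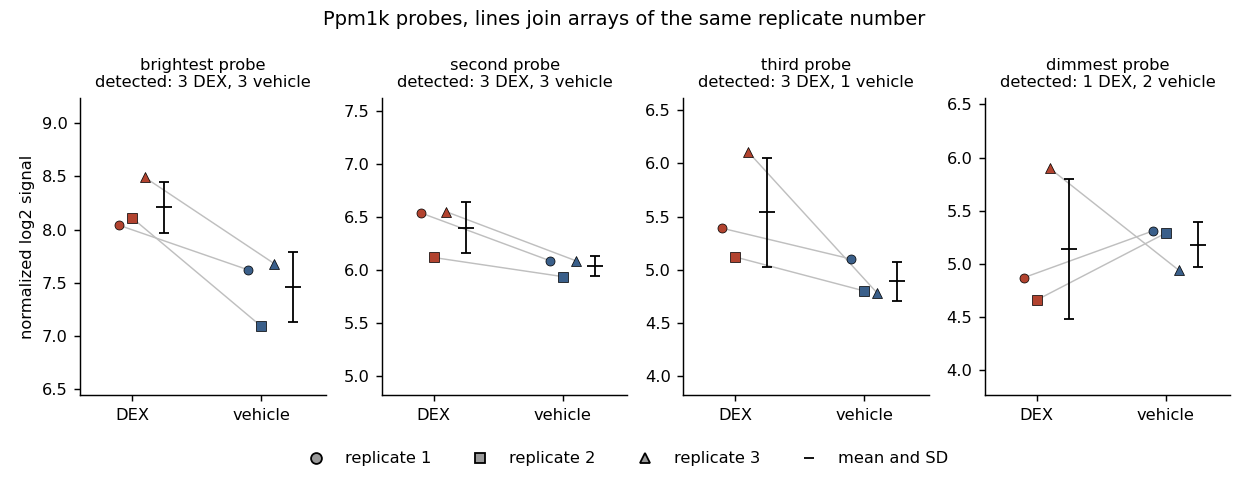
Normalized log2 signal of the 4 Ppm1k probes from the brightest to the dimmest, DEX left of vehicle, with lines joining arrays of the same replicate number and the mean with its SD (n = 3). The line of each replicate number is higher at DEX for the brightest 3 probes, while for the dimmest probe DEX replicate 3 at 5.90 is higher and the other 2 DEX arrays are lower than their vehicle arrays.

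Because Ppm1k and Bckdk act against each other on the complex, and Ppm1k had the largest difference of the members, the promoters of both are shown, from 250 bases before to 50 bases after the gene start (RefSeq, GRCm38.p6). Capitals mark AGAACA, the first bases of the glucocorticoid response element as searched here (AGAACA, any 3 bases, then TGTTC), wherever it occurs on either strand. The Bckdk window is chr7:127903823-127904122 on the plus strand and the Ppm1k window is chr6:57535438-57535737 on the minus strand.
Bckdk: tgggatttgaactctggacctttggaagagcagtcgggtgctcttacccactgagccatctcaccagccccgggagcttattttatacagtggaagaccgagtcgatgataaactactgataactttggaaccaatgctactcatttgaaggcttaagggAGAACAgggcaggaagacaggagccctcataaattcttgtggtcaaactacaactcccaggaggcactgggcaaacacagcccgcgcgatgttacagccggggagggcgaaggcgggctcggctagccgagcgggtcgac
Ppm1k: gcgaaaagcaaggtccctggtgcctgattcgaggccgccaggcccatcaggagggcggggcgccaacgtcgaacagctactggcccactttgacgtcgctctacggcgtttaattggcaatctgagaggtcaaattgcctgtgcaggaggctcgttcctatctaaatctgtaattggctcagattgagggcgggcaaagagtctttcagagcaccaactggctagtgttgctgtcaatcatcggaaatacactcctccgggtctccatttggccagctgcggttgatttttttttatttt
The Bckdk window holds AGAACA at 90 bases before the start, and the Ppm1k window holds none. Of the 10 members, 9 were in the promoter table, with 12 windows because some genes have several starts, and Dbt was not. The whole element was found in none of the 12 windows and in 0.0487% of all 32851 windows of this length. The shorter AGAACA, which is part of the whole element, was found in 3 of the 12 windows and in 19.0% of all windows. Beside Bckdk these were the windows of Bckdhb, at 238 bases before the start, and of Aldh6a1, on the opposite strand just past the start. None of these 3 genes passed the test. A match of letters is not evidence of binding, and a window without one says nothing of elements farther away.

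Past the complex, leucine carbon runs through Ivd, the isovaleryl-CoA dehydrogenase, and Mccc1, the biotin-bearing subunit of methylcrotonyl-CoA carboxylase. Ivd had log2 signals of 11.27, 11.11 and 11.69 in DEX and 11.34, 11.33 and 11.44 in vehicle. The vehicle arrays lay close together, inside the range of the DEX arrays. The difference was -0.01 with a 95% interval of 0.757 to 1.30-fold (adjusted p = 0.979). A second Ivd probe, annotated to a cDNA clone, was not detected on any array. Mccc1 had log2 signals of 10.66, 10.73 and 11.64 in DEX and 10.64, 10.96 and 10.99 in vehicle. DEX replicate 3 stood above all other arrays, and the other 2 DEX arrays lay within the vehicle range. The difference was 0.15 (standard error 0.25, adjusted p = 0.801), and without DEX replicate 3 it was -0.17.

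On the valine route, Hibch releases 3-hydroxyisobutyrate from its coenzyme A ester, and Aldh6a1, methylmalonate-semialdehyde dehydrogenase, makes propionyl-CoA. The Hibch probe was not detected on any DEX or vehicle array. Its bead signals of 91.9, 88.7 and 103 in DEX and 94.3, 90.2 and 100 in vehicle lay close to the median of all probes, which was 91.9 to 96.8 per array. No difference can be read from it. It has 1 probe here, so other transcript forms of the gene were not measured.

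The Aldh6a1 probe was detected on all 6 arrays. Its log2 signals were 13.12, 13.20 and 13.54 in DEX, against 13.10, 12.96 and 13.01 in vehicle, below the highest normalized signal of any probe, 14.57. Before any correction the mean bead signals overlapped, at 9066, 8642 and 11220 in DEX and 9522, 8000 and 9225 in vehicle. After normalization each DEX array was above each vehicle array, though DEX replicate 1 and vehicle replicate 1 differed by only 0.02. The difference was 0.26 with a standard error of 0.16, or 1.20-fold with a 95% interval of 0.938 to 1.53, and did not pass (adjusted p = 0.399). Without DEX replicate 3 it was 0.14.

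The same array stood out in several of these genes. DEX replicate 3 was the highest DEX array for 10 of the 14 tested member probes, where it was the highest for 36.6% of all tested probes. Its median deviation from the DEX mean over the 14 probes was 0.28, against -0.08 and -0.22 for DEX replicates 1 and 2, and -0.08 to 0.07 for the vehicle arrays. The 4 probes for which another DEX array was highest belonged to Bcat2, Bckdha and Bckdk. DEX replicate 3 was also the highest DEX array for 10 of 19 probes of other branched-chain pathway genes (median deviation 0.14). The same held for 14 of 21 probes of the pyruvate and 2-oxoglutarate complexes and their control (median deviation 0.16). On the same array 10 of 14 adipocyte marker probes were the highest of the DEX group (median deviation 0.22). Of 13 preadipocyte and fibroblast marker probes 8 were the lowest (median deviation -0.37), where 39.9% of all tested probes were lowest on it. The 8 belonged to Acta2, Dlk1, Thy1 and Ccn5 alone. Probes of Col3a1, Pdgfra and Postn, 4 in all, were the highest of the DEX group on this array. The summed bead signal of the tested adipocyte markers, over their brightest probes, was 62783 to 77508 in DEX and 62889 to 67273 in vehicle, and that of the preadipocyte and fibroblast markers 30492 to 37840 in DEX and 36160 to 40733 in vehicle. These sums of uncorrected signals rest mostly on the brightest probes. On DEX replicate 3 these were Adipoq, Cidec and Lpl at 23540, 21930 and 21440. Among the preadipocyte and fibroblast markers they were Dlk1, Col3a1 and Acta2 at 11150, 7749 and 7287. Whether the cell make-up of this array differed was not tested, nor was its part in the member signals. Without DEX replicate 3 the median difference of the 9 members was 0.01, and that of Ppm1k was 0.61.

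**Figure D3:**
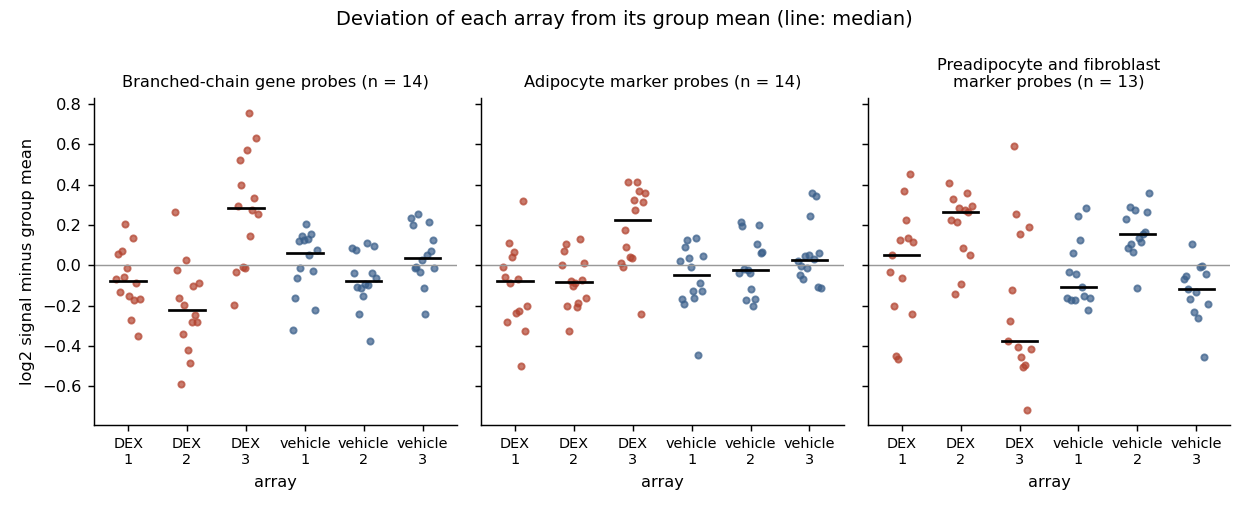
Log2 signal of each probe minus the mean of its group, by array, for the 14 tested probes of the branched-chain genes, 14 of adipocyte markers and 13 of preadipocyte and fibroblast markers. Points are probes and lines are medians, and DEX replicate 3 has medians of 0.28, 0.22 and -0.37 in the 3 panels.

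Other genes of the pathway were also without a call. Among further genes of transport, leucine, isoleucine, valine and propionate breakdown, 14 could be tested and none passed in either direction (limma). Of all genes 4.52% passed as higher and 3.05% as lower. Without adjustment 1 of the 14 was higher and 0 were lower, where 21.9% of all genes were past it in either direction. Their differences ranged from -0.24 to 0.42 with a median of 0.10. The exception at the unadjusted level was Hsd17b10, a dehydrogenase of isoleucine breakdown. It had log2 signals of 12.92, 13.05 and 12.83 in DEX and 12.63, 12.55 and 12.52 in vehicle, a difference of 0.37 (1.29-fold, adjusted p = 0.164, and 0.0245 to 0.44 over the alternatives). Hibadh, which follows Hibch in valine breakdown, had a log2 signal of 13.62 ± 0.06 in DEX and 13.44 ± 0.02 in vehicle (SD, n = 3 each) and a difference of 0.18 (adjusted p = 0.489). With median scaling the Hibadh difference was 0.03, and its mean bead signal before correction was 11800 in both groups. Mccc2, the partner subunit of Mccc1, was picked out after its values were seen. It differed by 0.42 (standard error 0.27, adjusted p = 0.438), with 0.31, 0.34 and 0.60 by replicate number. Leaving out vehicle replicate 1 gave 0.19, and leaving out DEX replicate 3 or DEX replicate 1 gave 0.21 or 0.69. Mmut was not detected on any array.

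Kin of the branched-chain complex gave a comparison on the same arrays. Pyruvate dehydrogenase is built alike and is switched by its own kinases, Pdk1 to Pdk4, which are related to Bckdk, and by the phosphatases Pdp1 and Pdp2. Of 13 genes of the pyruvate and 2-oxoglutarate complexes and their control, 12 were tested, 2 rose and none fell. Over all genes 4.52% passed as higher and 3.05% as lower. Pdk4 had log2 signals of 10.17, 10.42 and 10.41 in DEX and 6.91, 7.54 and 7.39 in vehicle, an 8.31-fold rise (adjusted p = 2.13e-05). Pdp1 had 7.65, 8.09 and 8.23 in DEX and 6.59, 6.77 and 6.70 in vehicle, a 2.47-fold rise (adjusted p = 0.00192), while its dimmer probe did not pass (difference 0.60, adjusted p = 0.211). Pdk1, Pdk2 and Pdk3 had differences of -0.16, -0.17 and 0.18 and did not pass (adjusted p = 0.803, 0.643 and 0.538), nor did the subunits Pdha1 (0.24, adjusted p = 0.415) and Pdhb (-0.00, adjusted p = 0.991). The change of Bckdk minus that of Pdk4 was -3.05 (standard error 0.28), with each DEX array below each vehicle array. The exact two-sided permutation test over arrays gave p = 0.10, the smallest that 3 against 3 allows. The change of Ppm1k minus that of Pdp1 was -0.55 (standard error 0.25, p = 0.20 by the same exact test, which does not use the pairs). By replicate number it was -0.64, -0.30 and -0.72, below 0 in 3 of 3 pairs. These were 2 comparisons, each against a kin gene that had risen, and neither can pass after adjustment. With Bckdk at 0.00 and Pdk4 at 3.05, the value of -3.05 restates the rise of Pdk4. Bckdk was not compared in this way with Pdk1, Pdk2 or Pdk3. Pdp2 differed by -0.26 (adjusted p = 0.457), and its change was not tested against that of Ppm1k.

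**Figure D4:**
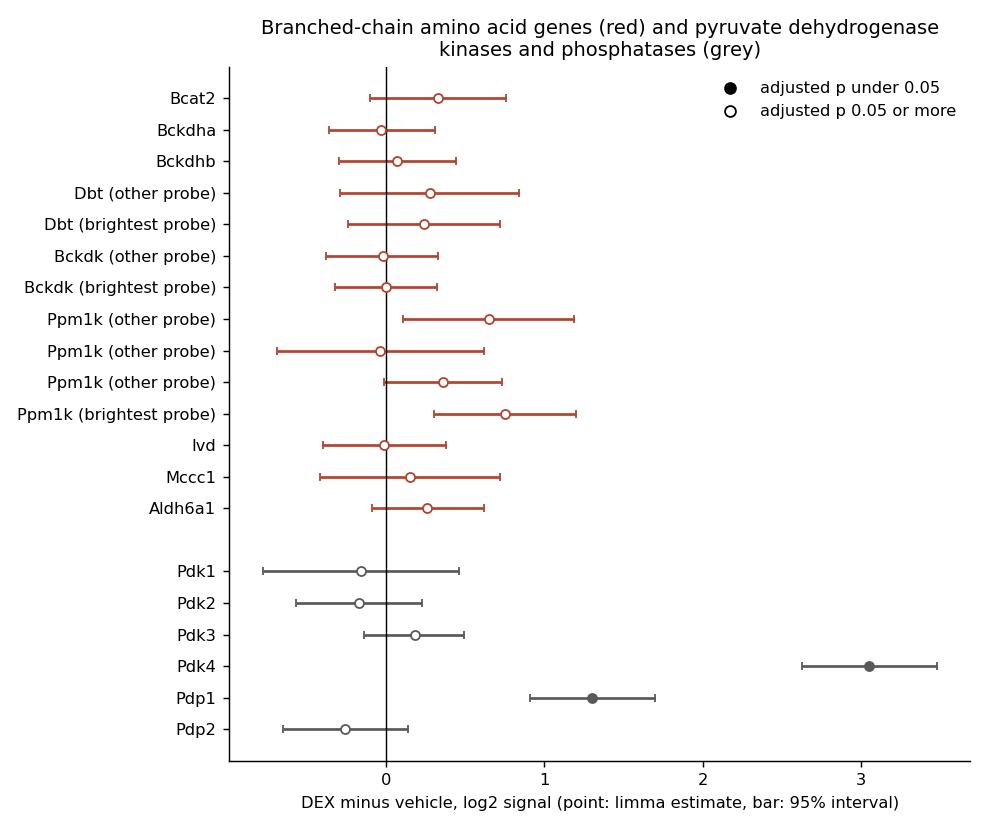
DEX minus vehicle on the log2 scale for each tested probe of the branched-chain genes in red and for the pyruvate dehydrogenase kinases and phosphatases in grey, as limma's estimate with its 95% interval (n = 3 arrays per group). Filled points passed an adjusted p under 0.05, which were Pdk4 at 3.05 and Pdp1 at 1.30, and the brightest Ppm1k probe at 0.75 is the highest of the red points.

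Of 5 regulators linked to the pathway, 4 were tested. Ppargc1a, a coactivator of mitochondrial genes that raises branched-chain enzymes in muscle, fell to 6.96, 6.45 and 6.85 in DEX, against 8.21, 7.90 and 7.97 in vehicle, or 2.41-fold lower (log2 difference -1.27, adjusted p = 0.00224). A further Ppargc1a probe was not detected on any array. No tested member passed in either direction, where 3.05% of all genes passed as lower and 4.52% as higher. Klf15, a transcription factor that drives branched-chain amino acid breakdown in muscle and liver and is a known glucocorticoid target there, had 7.64 ± 0.61 in DEX and 7.86 ± 0.32 in vehicle, a difference of -0.21 with a 95% interval of -0.87 to 0.44 (adjusted p = 0.743). Pparg, the main transcription factor of adipocytes, differed by 0.10 (adjusted p = 0.735), and Ppara was not detected on any array.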

How the data were processed

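Total RNA of 3 DEX and 3 vehicle samples was measured on 1-colour bead arrays. The authors deposited an intensity per probe and array, the mean bead signal on a linear scale without normalization, and a detection p-value deposited beside each. A second deposited table holds intensities pre-processed by the authors with lumi. Its 6 columns share a median of 79.5, with the lumi options and version not given in the sources used here.

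Normexp background correction in limma, with the background estimated through the detection p-values and an offset of 16, preceded quantile normalization and log2 (limma 3.58.1, R 4.3.3). Probes detected on at least 3 of 6 arrays were tested, 16317 of 45281, two-sided, by the moderated statistics of limma with Benjamini-Hochberg adjustment. The offset compresses folds of dim probes. The fit was tested on simulated data with known changes. Of the probes, 34885 carry 1 gene symbol, 18 several, and 29 symbols were updated through the GRCm38.p6 gene table. A gene counts by its brightest tested probe. All members are described, and of each other list up to 4 genes past the threshold and 2 below it with the highest signal. Named beyond this rule were Pdk1 to Pdk3, Pdp2, Mccc2, Pdgfra and the undetected Mmut and Ppara. Further markers were named in the account of DEX replicate 3. The members and lists were chosen with earlier results of these data known.

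As a check of pairing, array deviations from their group means were correlated between DEX and vehicle arrays. The correlations were 0.44, 0.30 and 0.25 for the same replicate number and -0.37 to 0.10 for different numbers. The main fit did not use pairs, and a fit with the numbers as pairs was run as an alternative. The labels give the numbers but no reason for a pairing. Protein sequences were not used here. Tables and figures were made with Python 3.11.15, pandas 2.3.3, numpy 2.4.6 and matplotlib 3.10.9.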

Additional observations from a re-analysis of the deposited data

How the results depend on the processing

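Alternatives changed the normalization, background, detection filter, pairing, array weights or the arrays used, 14 settings in all. Of the 194 values these gave for the 14 tested probes of 9 members, 169 kept their direction and their side of the threshold, 4 passed it and 21 changed sign. Each of the 4 was the brightest Ppm1k probe, at 0.59 with the authors' lumi values (adjusted p = 0.0496), 0.65 with an offset of 50 (0.0461), 0.75 with the replicate block (0.0183) and 0.83 with array weights (0.0151), with a range of 0.0151 to 0.243 over all settings, which makes 1 member called higher under each of these 4. With the replicates paired no other member's call changed. None was called when an array was left out, and Ppm1k then ranged from 0.56 without vehicle replicate 2 to 0.86 without vehicle replicate 3. The sign changes were of differences that passed under no setting. They were, with median scaling, -0.09 for Bckdhb, -0.13 for the brighter Bckdk probe, -0.02 for Mccc1 and -0.02 for Pparg; with array weights, -0.07 for Bckdhb, -0.0022 for the dimmer Dbt probe and -0.11 for Mccc1; with an offset of 50, 0.0038 for the dimmest Ppm1k probe. Over the fits with an array left out, the differences of both signs ranged from -0.11 to 0.07 for Bckdha, -0.07 to 0.16 for Bckdhb, -0.13 to 0.07 for the dimmer Bckdk probe, -0.07 to 0.06 for the brighter Bckdk probe, -0.41 to 0.21 for the dimmest Ppm1k probe, -0.18 to 0.11 for Ivd, -0.17 to 0.32 for Mccc1, -0.14 to 0.07 for Pdhb, -0.41 to 0.08 for Pdk1 and -0.55 to 0.04 for Klf15. Hsd17b10 passed without background correction (0.36) and with array weights (0.44), so 1 further pathway gene was called under each. Pdk4, Pdp1 and Ppargc1a passed under every setting. Over all probes 693 were called higher and 416 lower (62.5% of calls higher), against 587 and 667 (46.8%) with median scaling, where the median difference of all probes was -0.13, 1388 and 1375 with array weights, 1028 and 847 with the replicate block, and 400 to 779 higher and 128 to 521 lower with an array left out. The cause of these shifts was not tested. Detection on all 6 arrays gave no value for the dimmest 2 Ppm1k probes and Pdk2, which were not tested there. The number of arrays limits precision, and probes near background give compressed folds.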
